A study of Ovis aries with 12 samples.

Results

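Of 14026 genes with a mean of at least 1 CPM (a gene's reads relative to all reads of its library, made comparable between libraries with TMM factors, trimmed means of log ratios), 201 had all high-fertility libraries on the same side of all low-fertility libraries in both tissues studied. In 78 of these genes every high-fertility library lay above every low-fertility library in either tissue, and in 123 every one lay below. A further 3 genes that met the same condition were left out, as they are the ones already called for fertility over both tissues. The 201 members were chosen by their CPM in the high- and low-fertility libraries of both tissues, so these values are given as a description, with no test. The tissue contrast was not part of the rule and was tested, although the rule bars genes with no reads in a tissue.

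The data were 12 RNA sequencing libraries of total RNA from flash-frozen tissue that the labels give as sheep, in 4 groups of 3. Low fertility is L and high fertility is H, which gives Co-L with T-L and Co-H with T-H. The T libraries were labelled endometrium, the Co libraries ovary, except that Co-H 3 was labelled corpus luteum. In the file headers the 6 Co libraries are called CL, and Endo stands for the 6 from T. The labels give no breed, age, treatment or cycle stage, they do not say what Co and T stand for, the design text speaks of pooled samples, and whether each library stands for an animal of its own is not stated. P-values therefore measure the spread between these samples, which may be technical. Total counts were 12665680 to 17852552 for Co libraries, and T libraries had 9627378 to 13934369.

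The corpus luteum forms from the ovulated follicle and secretes progesterone. Progesterone in turn prepares the endometrium, the inner lining of the uterus, to secrete nutrients and to receive an embryo, and the endometrium can end the life of the corpus luteum by releasing prostaglandin F. Within an animal both tissues thus share hormones, although they differ in cell types. Whether the T and Co libraries came from the same animals was not established here. The files list cattle gene identifiers without gene names, and 0 of the 24616 identifiers matched the sheep gene table used here. No member could be named or placed in a pathway, the planned markers of ovarian and endometrial cell types could not be looked up, and members are described by identifier, level and pattern.

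Separation in a single tissue was much more frequent than separation in both. In Co every high-fertility library lay above every low-fertility library for 1391 genes (9.92%) and below for 1938 (13.8%). In T the same held for 703 (5.01%) and 734 genes (5.23%). Libraries of both tissues were scaled together, and without scaling factors the balance of directions in Co was reversed, with 2586 genes above and 890 below. In T it was then 388 and 916. If the tissues were unrelated, these shares would give 69.7 genes above in both tissues and 101.4 genes below in both, 171 in all. Observed were 79 (0.563%) and 125 (0.891%), 204 in all (1.45%) with the 3 genes left out of the members. Opposite separation was seen in 138 genes (0.984%), where 170 were expected. In all, 342 genes were separated in both tissues against 341 expected. The observed number was thus 1.19 times the expected one for genes separated alike and 0.812 times for genes separated oppositely, while the total of both kinds lay at its expected value. The genes counted are not independent of each other, so these ratios carry no p-value. In Co, deviations of libraries from their group mean correlated between genes at a mean of 0.42 within higher and 0.41 within lower members. In T these means were 0.10 and 0.09, and over all genes they were 0.00 in either tissue. Such correlation was not particular to the members. In Co the mean was 0.31 within the 1256 genes separated upward in Co only and 0.34 within the 1731 separated downward. In T it was 0.05 within the 542 genes separated upward in T only and 0.07 within the 553 separated downward.

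The excess of alike over opposite separation was not seen when 1 T library was left out. Without T-L 3 the genes separated alike numbered 362 against 361 expected and the genes separated oppositely 390 against 360, ratios of 1.00 and 1.08. With each of the other 11 libraries left out in turn the ratio for genes separated alike was at least 1.08, and it reached 1.39 without T-L 1. Fewer libraries make separation easier, so the counts themselves rose in each of these settings.

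**Figure D1:**
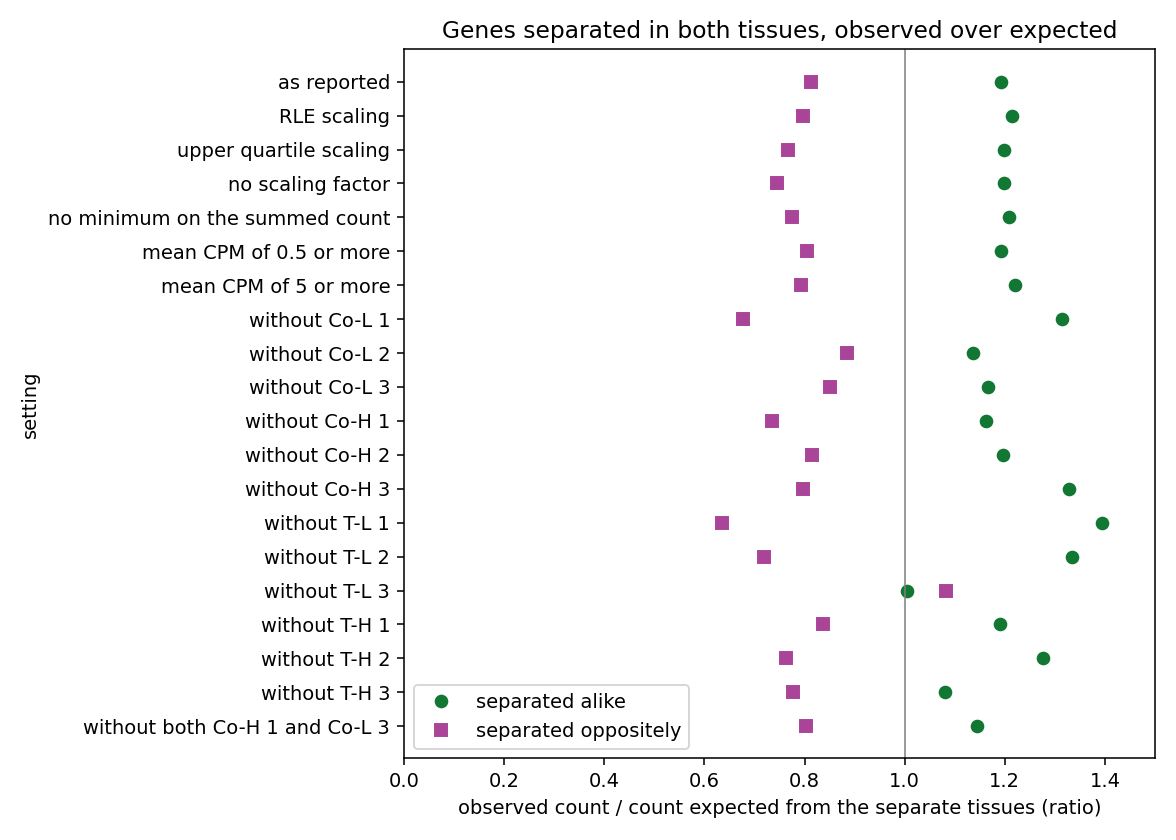
Ratio of the observed to the expected number of genes separated alike (circles) and oppositely (squares) in both tissues, on a linear axis, for each scaling, filter and left-out library; the line marks a ratio of 1. Circles lie to the right of squares in every setting shown except without T-L 3, where they are at 1.00 and 1.08.

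Most members were separated by a narrow margin. The gap between the 2 libraries that face each other, the lowest of the higher group and the highest of the lower group, was set against the counting error of their reads. It exceeded 2 counting errors in both tissues for 1 of the 78 higher members and for 23 of the 123 lower members. In Co alone it did so for 18 and 49 members, and in T alone for 6 and 35. The smaller of the tissue gaps had a median of 0.03 on the log2 scale among the higher and 0.05 among the lower members. Among the genes separated oppositely 6 of 138 exceeded 2 counting errors in both tissues. These include ENSBTAG00000009017, with 0 CPM in all T-H libraries and only 0.0895 CPM in T-L 3. There the 0 was replaced by a very small value before the log, which inflated its T gap to 12.9 counting errors. This gene also enters the numbers for the stricter condition below. Under this stricter condition, which was added with the results in view, 26 genes were separated alike (including 2 of the 3 genes left out) and 6 oppositely. With the expectation taken within 5 classes of mean level, since well-counted genes pass more easily in either tissue, 18.0 and 9.83 were expected.

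Membership also moved with the choice of scaling. Relative log expression (RLE) factors kept 183 of the 201 members, upper quartile factors 168, and TMM factors computed without a minimum on the summed count 169. With CPM of the unadjusted library total 92 members were kept. Single members of narrow gap are therefore less certain than the counts, which were 206, 208, 202 and 152 under these scalings. Upper quartile factors shifted the balance of directions to 57 higher and 151 lower members, from 78 and 123.

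The differences were modest and larger in Co. Among the higher members the median log2 difference between the H and L group means was 0.52 in Co and 0.21 in T, on log2(CPM + 0.5). Among the lower members it was −0.72 in Co and −0.30 in T. Over all 14026 genes the medians were −0.06 in Co and 0.00 in T. The quartiles over all genes were −0.35 and 0.26 in Co and −0.13 and 0.13 in T, so differences were wider in Co beyond the members too. The difference was larger in Co for 68 of the 78 higher and 101 of the 123 lower members, and in the oppositely separated genes for 115 of 138. A difference of at least 2-fold in both tissues was found in 0 higher and 6 lower members, and 46 higher and 37 lower members stayed under 1.5-fold in both. In whole tissue, fewer cells of a type and less RNA per cell cannot be told apart.

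**Figure D2:**
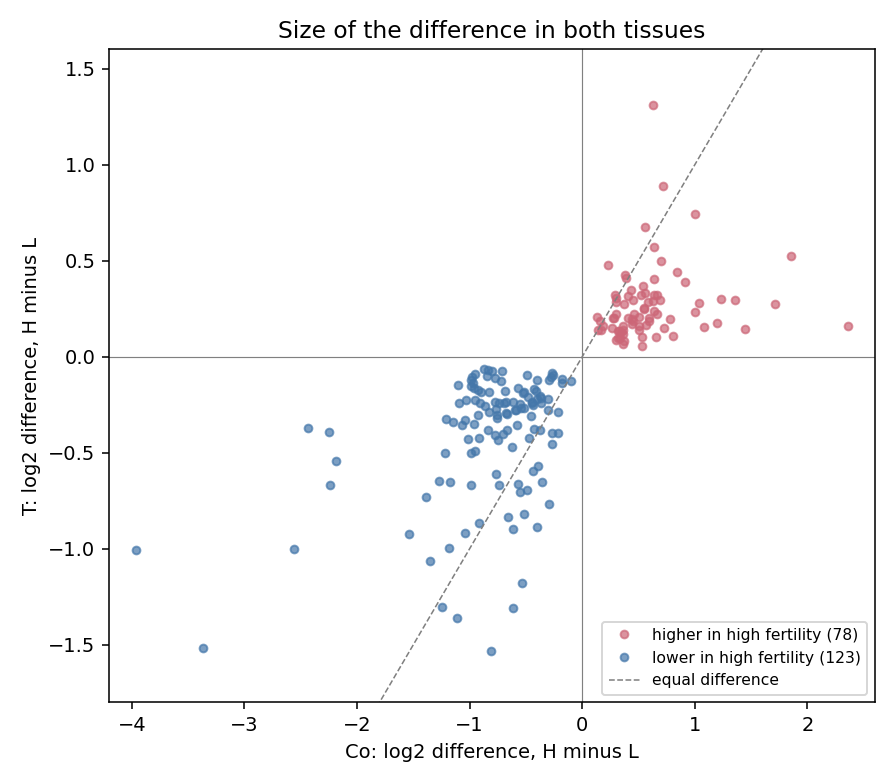
Log2 difference between the H and L group means, on log2(CPM + 0.5), in Co (horizontal) and in T (vertical) for each of the 201 members; the dashed line marks equal differences. The empty quadrants follow from the choice of members, and most points lie closer to the horizontal axis than the dashed line does, with medians of 0.52 and −0.72 in Co and 0.21 and −0.30 in T.

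The members with the widest gaps in the higher direction were both of low level. ENSBTAG00000015965 stood at 3.02, 3.30 and 2.73 CPM in Co-L 1 to 3 and at 3.997, 7.44 and 6.93 CPM in Co-H 1 to 3. The T-L libraries had 3.10, 2.92 and 2.95 CPM, and the T-H libraries 4.003, 4.46 and 3.78 CPM. Its L levels had means of 3.02 ± 0.288 and 2.99 ± 0.0936 CPM (SD, n = 3 each), and its H mean was 6.12 ± 1.86 CPM in Co and 4.08 ± 0.343 CPM in T. ENSBTAG00000046573 stood at 5.77, 3.75 and 5.06 CPM in Co-L and at 6.51, 7.27 and 10.8 CPM in Co-H. The T-L libraries had 4.65, 5.20 and 5.64 CPM, and the T-H libraries 8.27, 6.62 and 7.64 CPM. The low-fertility means of this gene were 4.86 ± 1.02 CPM for Co and 5.16 ± 0.498 CPM for T, and the high-fertility means 8.19 ± 2.28 and 7.51 ± 0.835 CPM (SD, n = 3 each). In Co the distance between groups was set by Co-H 1, the lowest Co-H library for both genes.

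The lower members with the widest gaps were counted more often. ENSBTAG00000005868 stood at 64.9, 57.0 and 66.2 CPM in Co-L and at 39.9, 29.4 and 40.6 CPM in Co-H. The T-L libraries had 41.1, 37.7 and 42.4 CPM, and the T-H libraries 22.3, 28.6 and 27.8 CPM. The groups did not overlap, as the choice requires, and the log2 differences were −0.77 in Co and −0.61 in T. ENSBTAG00000035926 stood at 19.7, 26.0 and 31.8 CPM in Co-L and at 8.74, 7.15 and 12.8 CPM in Co-H. The T-L libraries had 13.2, 17.1 and 17.5 CPM, and the T-H libraries 8.27, 10.1 and 9.83 CPM, with log2 differences of −1.39 in Co and −0.73 in T. For this gene Co-L 1 and T-L 1 were the low-fertility libraries nearest to the high-fertility ones.

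**Figure D3:**
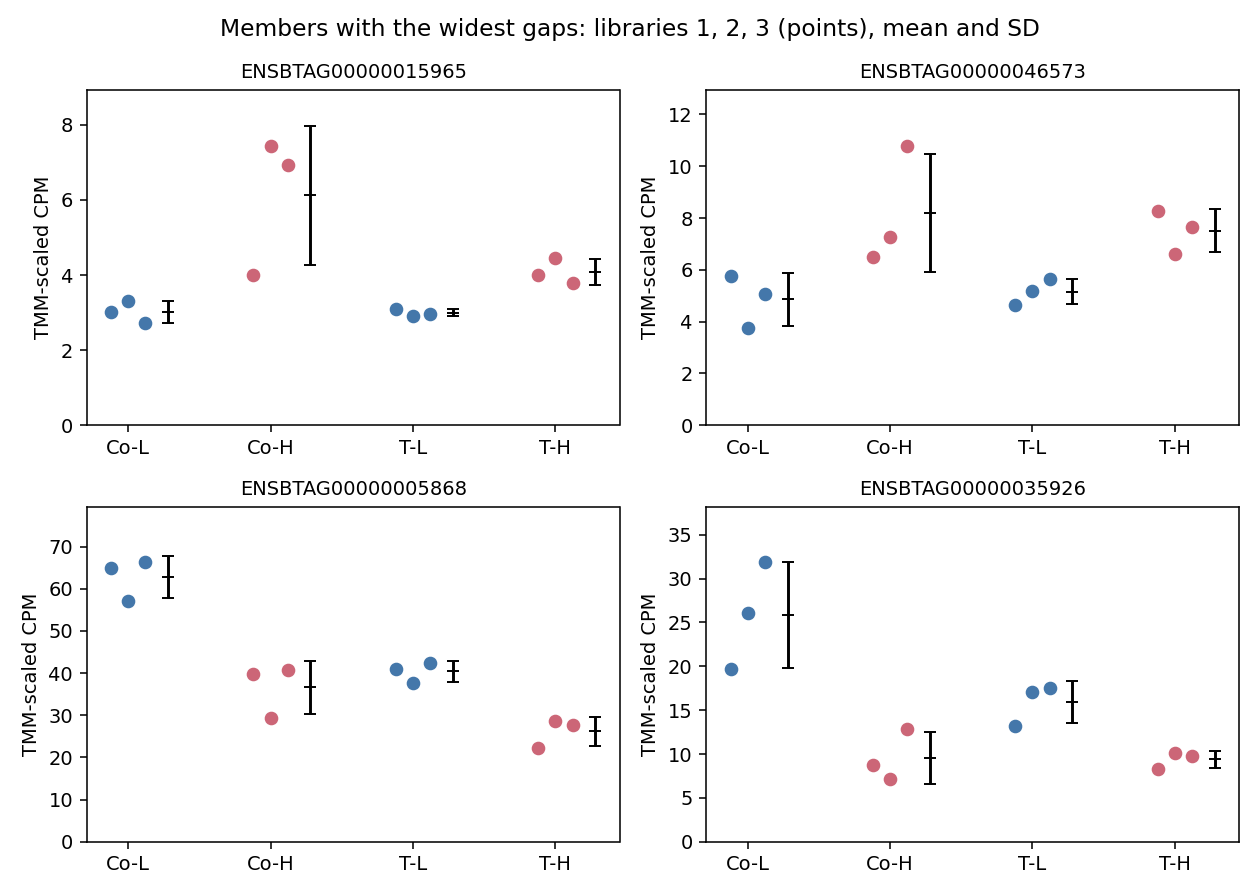
TMM-scaled CPM of the 2 higher members (top) and the 2 lower members (bottom) with the widest gaps, by group, on linear axes from 0; points are libraries 1, 2 and 3 from left to right (blue low, red high fertility) and bars give the mean and SD (n = 3). In each panel the high-fertility points lie on one side of the low-fertility points in Co and in T, with Co-H 1 lowest of the Co-H libraries in both upper panels, at 3.997 and 6.51 CPM.

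The most abundant members were lower in high fertility. CPM is not divided by gene length, so it says how well a gene was counted and does not rank genes by molecules. The lower members had a median level of 44.6 CPM, the higher members 30.5 CPM, and all 14026 genes 21.4 CPM. Means of at least 1000 CPM were found in 10 of the 123 lower members (8.13%), in 0 of the 78 higher members and in 108 of all genes (0.770%). Of those 108 genes 60 were separated downward in Co, none upward, and 13 were separated downward in T, so that 7.22 would be lower in both if the tissues were unrelated. The 10 genes had similar differences, between −0.99 and −0.72 on the log2 scale in Co and between −0.32 and −0.08 in T. T against Co was called for 2 of the 10, both higher in Co, where 64.4% of all genes tested were called and 32.7% were higher in Co, with log2 changes from −1.40 to −0.04 over the 10 genes.

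ENSBTAG00000017389, the member with the highest mean level, stood at 3271, 4207 and 5235 CPM in Co-L and at 3213, 2130 and 1798 CPM in Co-H. The T-L libraries had 2153, 2080 and 2066 CPM, and the T-H libraries 1711, 1839 and 1999 CPM. Co-L 1 and Co-H 1 nearly met, while the other Co libraries were far apart. ENSBTAG00000018463 stood at 4296, 3988 and 5641 CPM in Co-L and at 3366, 2389 and 2488 CPM in Co-H. The T-L libraries had 1585, 1485 and 1500 CPM, and the T-H libraries 947, 1390 and 1334 CPM, where T-H 1 was the lowest library. Together the 123 lower members took 3.34% ± 0.684 of the counts of Co-L libraries and 2.26% ± 0.195 of those of Co-H. For T-L the share was 3.47% ± 0.0887, and for T-H it was 2.85% ± 0.324 (SD, n = 3 for every group).

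Of the higher members, ENSBTAG00000012683 had the highest mean level and the largest difference in Co. It stood at 221, 216 and 145 CPM in Co-L, at 238 CPM in Co-H 1, and at 1361 and 1394 CPM in Co-H 2 and Co-H 3. The T-L libraries had 350, 342 and 297 CPM, and the T-H libraries 390, 355 and 359 CPM. The 2.36 log2 difference in Co thus rested on Co-H 2 and Co-H 3, and that in T was 0.16. ENSBTAG00000001632 was the single higher member whose gaps exceeded 2 counting errors in both tissues. It stood at 151, 145 and 118 CPM in Co-L and at 175, 174 and 168 CPM in Co-H, with 179, 185 and 177 CPM for T-L against 198, 198 and 199 CPM for T-H. Its differences were small, 0.32 in Co and 0.14 in T on the log2 scale, but its H libraries agreed closely, with SDs of 3.77 and 0.493 CPM. All 78 higher members together took 0.211% ± 0.0364 of the counts of Co-L libraries and 0.423% ± 0.126 of those of Co-H. For T-L the share was 0.372% ± 0.0204, and for T-H it was 0.410% ± 0.0222 (SD, n = 3 for every group).

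Within Co the libraries of a group stood at different distances from the other group. The deviation from the mean of the tissue had a median over the higher members of −0.11, −0.18 and −0.44 (log2) in Co-L 1 to 3, of 0.07 in Co-H 1 and of 0.29 and 0.36 in Co-H 2 and Co-H 3. Over the lower members it was 0.12, 0.26 and 0.61 in Co-L 1 to 3 and −0.16, −0.46 and −0.41 in Co-H 1 to 3. Co-H 1 was the Co-H library nearest to Co-L in 57 of the 78 higher and 88 of the 123 lower members, and Co-L 1 was the Co-L library nearest to Co-H in 45 and 81. Co-L 2 was nearest in 29 members of each set. Among the 138 oppositely separated genes Co-H 1 was nearest in 100, while Co-L 1 and Co-L 2 were nearly level at 61 and 58. Co-H 2 and Co-H 3 also differed in composition from the other Co libraries, with TMM factors of 0.979 and 1.00 against 0.749 to 0.869, and with 17091 and 17014 genes counted at least once against 15935 to 16609. The part of this in the members' values was not tested.

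In T the deviations were smaller and more even. The medians of the higher members lay between −0.13 and −0.08 in the T-L libraries and between 0.06 and 0.16 in the T-H libraries, and those of the lower members between 0.12 and 0.15 and between −0.24 and −0.07. T-H 1 was the farthest T-H library from T-L in both sets, at 0.16 and −0.24, and it was the nearest one in 11 of the 78 higher and 27 of the 123 lower members. Its TMM factor was 1.03, the lowest of the T libraries, which reached up to 1.23.

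**Figure D4:**
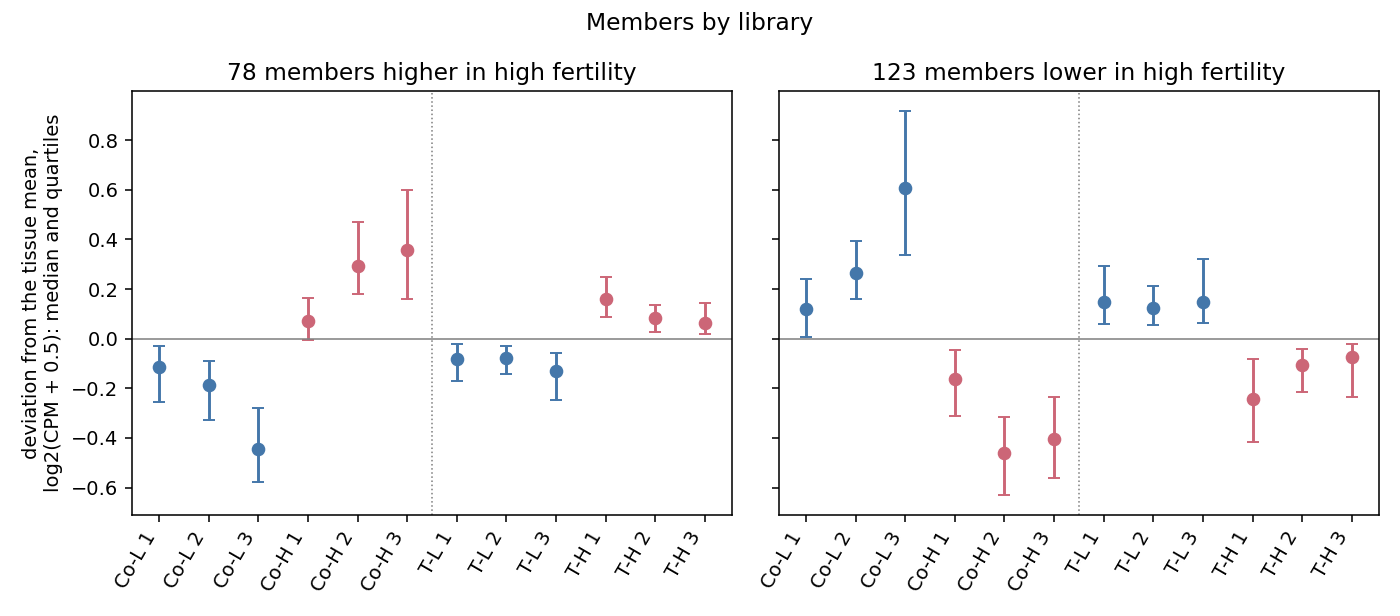
Deviation of each library from the mean of its tissue on log2(CPM + 0.5), as the median (point) and quartiles (bar) over the 78 higher members (left) and the 123 lower members (right); blue is low and red is high fertility, and the dotted line divides Co from T. The sign by group follows from the choice of members, and the choice also favours larger differences. Co-L 3 lies at −0.44 and 0.61 and Co-H 1 at 0.07 and −0.16, and the T libraries lie between −0.24 and 0.16.

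In a few lower members 1 library set the size of the difference in Co. In 5 of the 123 lower members Co-L 3 was at least 4 times the higher of Co-L 1 and Co-L 2, as it was in 408 of all 14026 genes (2.91%). Co-L 3 ranged from 5.26 to 22.4 CPM in these 5 genes, Co-L 1 and Co-L 2 from 0.150 to 2.27 CPM and the Co-H libraries from 0 to 0.472 CPM. Co-L 1 and Co-L 2 also lay above every Co-H library in these genes, as the choice requires of every lower member. The margin could be very small, as in ENSBTAG00000001359 with 0.481 CPM in Co-L 1 and 0.465 CPM in Co-H 1. T was called higher than Co for 3 of the 5 genes, against 31.7% of all genes tested. ENSBTAG00000008452 was the member with the greatest excess in T. It stood at 0.206, 0.150 and 22.4 CPM in Co-L and at 0, 0.0572 and 0 CPM in Co-H, against 58.0, 44.0 and 49.96 CPM for T-L with 26.9, 25.3 and 22.7 CPM for T-H. Its T libraries differed by a log2 value of −1.01 between H and L and did not overlap, whereas the size of its Co difference rested on Co-L 3, with very few reads in the other Co libraries.

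The tissue contrast asked whether members were expressed alike in T and Co, averaged over fertility. All 201 members entered the test, and 112 were called (55.7%), 55 higher in T and 57 higher in Co, where 64.4% of the 14839 genes tested were called (31.7% and 32.7%; quasi-likelihood test of edgeR, p adjusted after Benjamini and Hochberg, under 0.05). The share was 53.8% for the higher members and 56.9% for the lower members, and 71.0% for the oppositely separated genes. The median size of the tissue difference was 0.40 on the log2 scale for the members and 0.64 for all genes tested, and a call with at least 2-fold difference was made for 41 members (20.4%) and for 33.2% of all genes. Among the genes with a mean of at least 1 CPM, the ones that could become members, 65.0% were called. The difference between these shares was not tested. A gene with no reads in any library of a tissue could not become a member. The choice thus bars some genes of strong tissue bias, and the members' shares are not free of it. Differences of at least 8-fold were called for 5 lower members, 3 toward T and 2 toward Co, against 6.31% and 3.32% of all genes, and for 0 higher members.

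Named members showed how far the tissues could differ while their fertility groups were ordered alike. ENSBTAG00000020143, the higher member with the greatest excess in T, had means of 14.2 ± 3.76 CPM for Co-L, 21.1 ± 1.18 CPM for Co-H, 119 ± 14.3 CPM for T-L and 151 ± 11.3 CPM for T-H (SD, n = 3 in every group). Its T against Co log2 change was 2.94 (SE 0.13, edgeR adjusted p = 1.3e-08), with all T above all Co libraries. ENSBTAG00000006876, the higher member with the greatest excess in Co, stood at 62.3 ± 2.38 and 76.8 ± 9.48 CPM in Co-L and Co-H and at 26.0 ± 2.03 and 32.3 ± 1.55 CPM in T-L and T-H. The log2 value of T against Co was −1.26 (SE 0.08, adjusted p = 2.4e-07 in edgeR). Its fertility differences were 0.30 in Co and 0.31 in T. Among the lower members ENSBTAG00000017223 stood at 93.3 ± 32.6 and 46.8 ± 12.8 CPM in Co-L and Co-H and at 8.16 ± 1.35 and 5.62 ± 2.01 CPM in T-L and T-H. T against Co was −3.29 on the log2 scale (SE 0.25, adjusted p = 6.4e-07 in edgeR). For ENSBTAG00000008452, with 2 Co-H libraries at 0, the fitted log2 value was 6.15 (SE 1.17, adjusted p = 0.00072 in edgeR), which depends on the prior count.

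**Figure D5:**
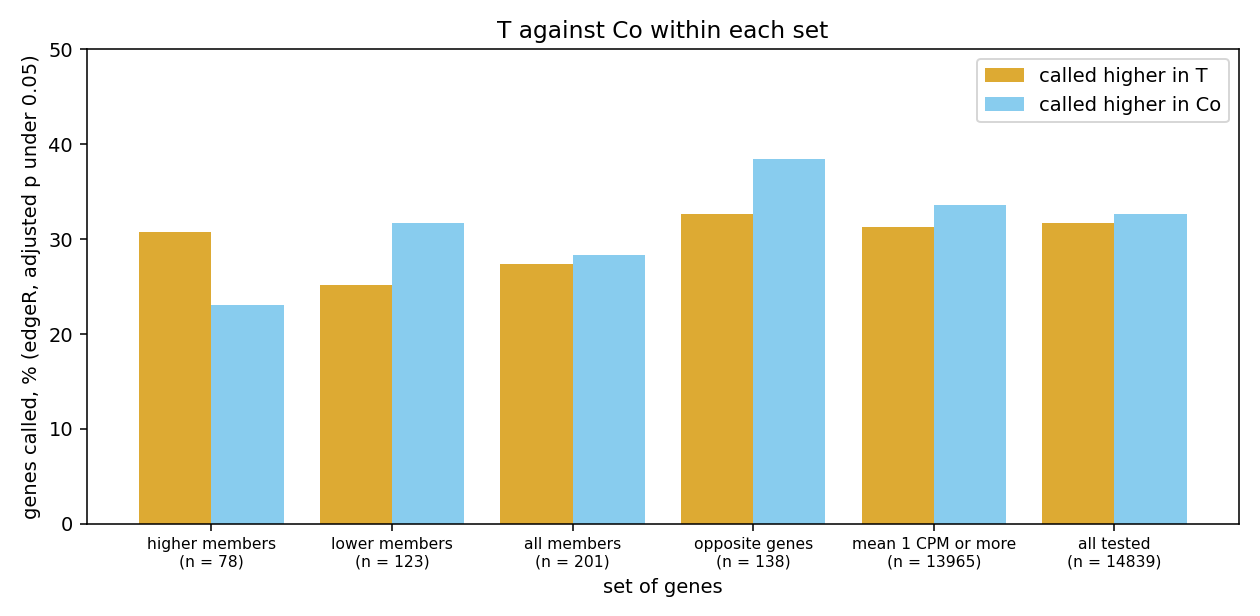
Percentage of genes called higher in T or higher in Co (edgeR, adjusted p under 0.05) in each set of genes, with the number tested under each name; the axis starts at 0. Members were called for 27.4% toward T and 28.4% toward Co, against 31.7% and 32.7% of all genes tested.

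In the fertility contrasts that chose them, 61 of the 201 members were called in Co (17 of the higher and 44 of the lower members), where 4.78% of all genes were called (2.46% higher and 2.32% lower), and 0 in T, where 0 of 14839 were called (edgeR, smallest adjusted p among members 0.356). The unadjusted p in T was under 0.05 for 49 members. Over both tissues 0 members were called (smallest adjusted p 0.0938), beside 3 of 14839 genes (0.0202%; 0.00674% higher and 0.0135% lower), which are the 3 left out. DESeq2 called 4 members in T, among 27 genes in all, and 128 members over both tissues, among 571 genes. For the difference of the fertility contrasts between the tissues edgeR called 0 members and 0 genes, with a smallest adjusted p of 0.257 among members, and the unadjusted p was under 0.05 for 43 members. Nothing is read from these counts, since the same values chose the members. The 61 members called in Co, among 709 genes in all, became 126 among 3110 without Co-H 1, 90 among 1131 without Co-L 1 and 1 among 7 without Co-L 2, and 0 without Co-L 3, Co-H 2, Co-H 3 or any single T library. The smallest adjusted p among members in Co was 0.0463 as reported (edgeR), just under the threshold of 0.05. With a single T library left out it was 0.0602 to 0.0716 (edgeR). Over both tissues 126 members were called without Co-H 1, among 1495 genes.

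At the edge of the level threshold separation rested on few reads. ENSBTAG00000039563, just inside at a mean of 1.02 CPM, stood at 0.481, 1.58 and 2.34 CPM in Co-L and 0.279, 0.229 and 0.472 CPM in Co-H. Its T values were 1.42, 1.29 and 2.78 CPM in T-L and 0.178, 0.852 and 0.303 CPM in T-H, and its lowest library held 2 counts. ENSBTAG00000042166, at a mean of 1.103 CPM, was separated upward with a lowest library of 3 counts. Just outside were ENSBTAG00000002425 at 0.976 CPM and ENSBTAG00000003700 at 0.916 CPM, both separated upward in both tissues.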

How the data were processed

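Each library has its own deposited file of whole-number read counts, listed by cattle gene identifier and not normalized. Per the submitters' processing notes, the read aligner Bowtie 0.12.2 was named for all 12 libraries and the build bosTau8 for 7 of them. The counting program, annotation and strand setting are not named by the labels or headers, so reads shared by near-identical or overlapping genes could not be told apart. A header fused with the first gene in T-H 3 and a blank line in Co-L 1 were handled on reading.

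Libraries were grouped by their titles. Genes with a summed count of at least 120 were scaled by TMM in edgeR 4.0.16 (R 4.3.3), and the rule for members was applied to CPM of the full library total. The expected number is the product of the shares separated in each tissue. The members and gene lists were chosen with earlier results of these data known. Tests used the edgeR quasi-likelihood fit on 14839 genes (filterByExpr, minimum count 10), 4 group means over all 12 libraries, and Benjamini-Hochberg adjustment over all genes. The SE given with an edgeR log2 change is its absolute size divided by the square root of the F statistic of the test. DESeq2 1.42.0 was an alternative. Members were named by widest gap, highest mean level and most extreme tissue change, at most 2 per direction and rule because no symbols were at hand, together with the members nearest the level threshold. The scripts were tested on simulated data. Replicates differed by 18.0 to 135 chi-square units per degree of freedom, beyond sampling noise, so each library counted as 1 replicate.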

Additional observations from a re-analysis of the deposited data

How the results depend on the processing

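Scaling and level filters kept the number of members between 152 and 208, and the number of oppositely separated genes between 119 and 144. Leaving out 1 library gave 231 to 487 members and 159 to 390 oppositely separated genes, since fewer libraries separate more easily. With Co-H 1 and Co-L 3 both left out there were 493 and 350, and with a gap of at least 2 counting errors 24 and 6; these settings were chosen after seeing the data. Without scaling factors the median over all genes of the difference in Co between means of log2 values moved from −0.05 to 0.16 (the −0.06 given above is between logs of group means).

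Members called for T against Co numbered 105 to 116 with a library left out and 106 to 116 otherwise, and 128 without both Co-H 1 and Co-L 3. Members called in Co, 61 as reported, numbered 65 with RLE factors (786 of all genes), 66 without the expression filter (752), 130 in DESeq2 (2261), 97 without both libraries (2664) and 0 to 126 with 1 library left out (0 to 3110), against 709 of all genes as reported. Over both tissues the count went from 0 to 128 in DESeq2 (571 of all genes), 117 without both libraries (1495) and 0 to 126 with 1 library left out. In T it was 4 in DESeq2 (27 of all genes) and 0 with any library left out. For the difference between tissues it was 23 without both libraries (1262 of all genes) and 0 to 22 with 1 left out (up to 1237). The cause of these changes was not tested.

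The replicate numbers were not taken to pair the libraries: their deviations correlated at 0.07 to 0.14 across genes between Co-L and T-L at −0.09 to 0.00 between Co-H and T-H, at 0.02 to 0.25 between Co-L and Co-H and at −0.29 to −0.02 between T-L and T-H, so that no pair of groups had all 3 above 0.1. With the replicate number as a block, 0 members were called in Co and 108 for T against Co, and with pairs of T and Co libraries as the block 106. All other replicate block counts remained 0.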

Other observations

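The ratio of observed to expected genes separated alike was 1.11 at a mean level of 1 to 5 CPM, 1.06 at 5 to 20, 1.28 at 20 to 100, 1.11 at 100 to 1000 and 1.38 at 1000 CPM or more. For genes separated oppositely it was 0.907, 0.920, 0.799, 0.665 and 0.450 in the same classes. The highest class held only 108 genes, and its ratios rest on few of them. There 10 genes were separated alike against 7.22 expected, and 1 oppositely against 2.22 expected.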
